A study of Drosophila melanogaster with 8 samples.

Results

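The 9 genes described here carry the bone morphogenetic protein (BMP) signal that holds germline stem cells in the Drosophila ovary. They were the ligands dpp and gbb, the receptors tkv, put and sax, and the effectors Mad, Med, Dad and Smurf. Members were every probe set that the array annotation assigned to 1 of these genes alone, which gave 10 of the 18769 probe sets tested, with 2 probe sets for tkv and 1 for each other gene. Arms in the gene table were 2L for dpp, tkv and Mad, 2R for gbb, sax and Smurf, and 3R for put, Med and Dad.

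Ovary RNA from virgin females was amplified and hybridized to 8 arrays, 1 array per sample of 100 ovary pairs, at 4 to 6 h after eclosion per the labels, although the methods give 1 day. The 4 samples labelled null carried a mutant ote allele on each second chromosome, with otePk over oteG per the labels. The 4 samples labelled het carried the otePk chromosome over the balancer CyO, which holds a wild-type ote. The mutant chromosome also held a chk2 mutation, P6 in replicates 3 and 4 and P30 in replicates 1 and 2 of both labels, so every female, het females included, was heterozygous for chk2. No sample was wild type for ote or chk2, and the methods place a different ote allele, oteB279G, on the P30 chromosome. The oteB279G allele is an insertion and otePK a premature stop, and ote encodes Otefin, a LEM domain protein of the nuclear lamina.

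In the germarium, cap cells of the niche secrete Dpp and Gbb, which bind the type II receptor Punt with the type I receptors Thickveins or Saxophone on the adjoining germline stem cells. The receptors phosphorylate Mad, which enters the nucleus with its partner Medea, represses the differentiation gene bam and activates Dad. Dad, an inhibitory Smad, and Smurf, a ubiquitin ligase, limit the signal, and Otefin has been described as a partner of Medea at the bam silencer.

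Values are log2 signals after RMA, so a difference of 1 is a 2-fold change, and levels of different probe sets are not comparable. Whole ovaries were measured, in which fewer cells of a type and less RNA per cell cannot be told apart. Markers of germline cells averaged between 10.4 and 10.9 on each of the 8 arrays, and all 11 lay above 5.68, the median over all probe sets of their mean signal. The targeted gene Ote read 7.58, 7.48, 8.56 and 8.66 in null 1 to 4, against 9.26, 7.27, 9.66 and 9.29 in het 1 to 4. The array labelled het 2 thus had the lowest Ote signal of the series, below every null array, and does not match its label by this probe set. Values without het 2 are added for the differences that it moved most. Het 2 was the lowest array for sax, Mad, Smurf and the tkv probe set of higher mean. Leaving it out could therefore only lower null minus het for these probe sets. Nothing in the labels says that replicates came from separate crosses, so p-values measure only the spread between these samples. Numbers of the 10 probe sets called are set against the share of all probe sets called, at 2-fold with an unadjusted p under 0.05 by limma, the thresholds of the methods.

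No BMP probe set passed the test between null and het ovaries. By limma 0 of 10 were called, against 0.149% of all probe sets, and 0 of 10 had an unadjusted p under 0.05, against 2.25% of all. The unmoderated test that the methods name also called 0 of 10, and no probe set of the array had a Benjamini-Hochberg adjusted p under 0.05. Null and het arrays overlapped in all 10, where 1.82% of all probe sets had groups that did not overlap. The median difference over the 10 was -0.04, beside -0.01 over all probe sets, with 3 of 10 positive beside 48.2% of all. For 7 of 10 the 95% interval of the difference lay within 2-fold in either direction, the exceptions being dpp, gbb and Smurf.

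**Figure D1:**
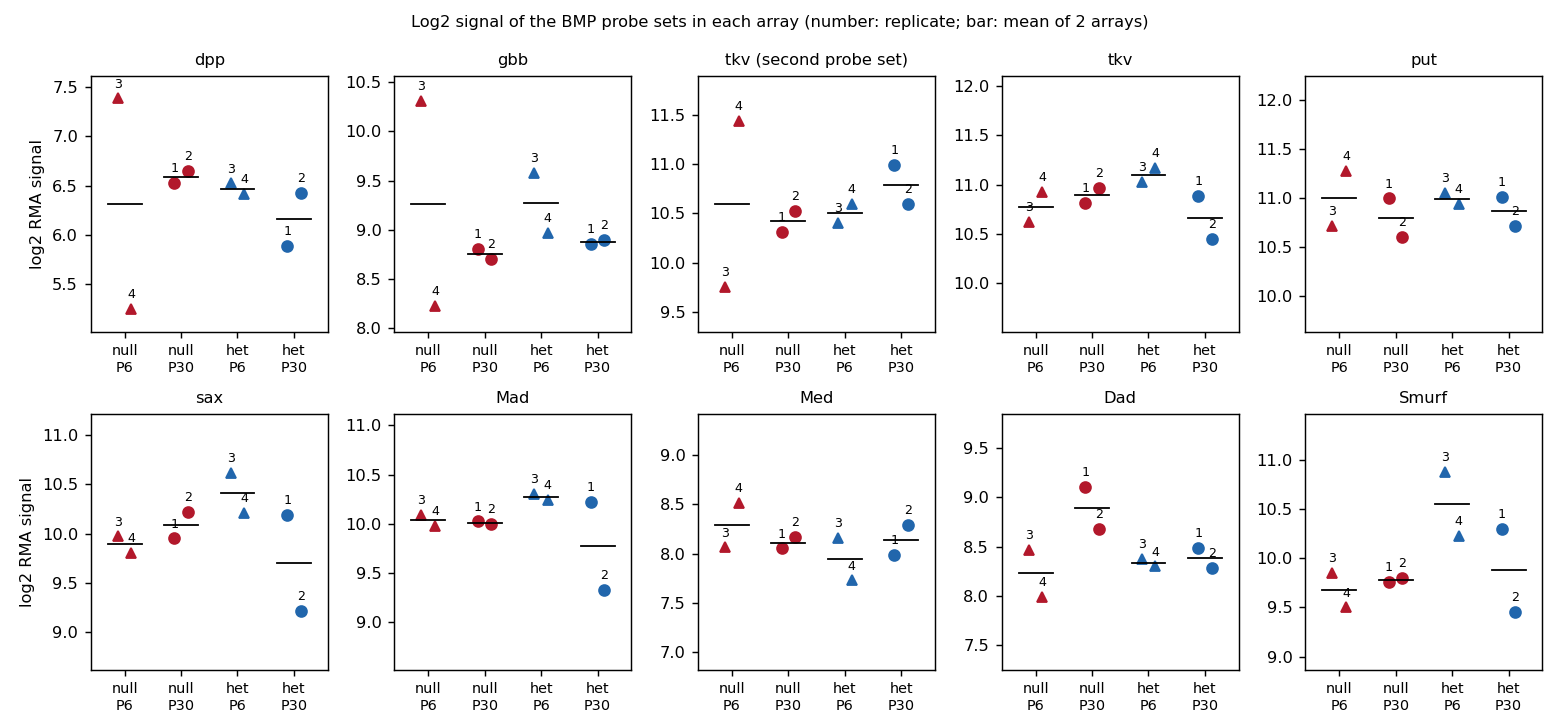
Log2 RMA signal of each BMP probe set on each array (vertical axis, the same span in every panel) by label and chk2 background (horizontal axis), with replicate numbers beside the points and a bar at the mean of the 2 arrays (the second tkv probe set is that of lower mean). For dpp and gbb the null P6 arrays 3 and 4 lie at the opposite ends of the range, and for sax, Mad and Smurf het 2 is the lowest point.

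Of the ligands, dpp, which encodes the main BMP of the niche, read 6.53, 6.64, 7.39 and 5.24 in null 1 to 4, against 5.89, 6.43, 6.52 and 6.41 in het 1 to 4. Null 3 was the highest and null 4 the lowest of the 8 arrays, and null 4 lay below its own array's median of 5.61. Null ovaries averaged 6.45 ± 0.89 and het ovaries 6.31 ± 0.29 (SD, n = 4 each), a difference of 0.14 with a 95% interval of -0.82 to 1.10 and an exact two-sided permutation p of 0.743. That interval runs from 1.76-fold lower to 2.14-fold higher in null. The permutation test cannot go below 0.0286 with 4 arrays against 4.

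The second ligand, gbb, encodes a BMP of the BMP5/6/7 class and read 8.81, 8.70, 10.31 and 8.22 in null 1 to 4, against 8.86, 8.90, 9.58 and 8.97 in het 1 to 4. Here too null 3 was the highest and null 4 the lowest array. Null averaged 9.01 ± 0.90 and het 9.07 ± 0.34 (SD, n = 4 each; exact permutation p = 0.829). The difference of -0.06 had an interval of -1.05 to 0.92, so the interval of each ligand reached past 2-fold in 1 direction.

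Of the receptors, the tkv probe set with the higher mean read 10.82, 10.97, 10.62 and 10.92 in null 1 to 4, against 10.88, 10.44, 11.03 and 11.16 in het 1 to 4. The type I receptor gene thus spanned 0.35 log2 units among null arrays and 0.72 among het arrays, of which het 2 was lowest. Null minus het was -0.05 with an interval of -0.44 to 0.34 (exact permutation p = 0.8), and -0.19 without het 2. The other tkv probe set read 10.31, 10.52, 9.75 and 11.44 in null 1 to 4, against 10.99, 10.59, 10.41 and 10.60 in het 1 to 4. Its lowest and highest arrays were null 3 and null 4, a span of 1.69 where the first probe set spanned 0.35 over the same null arrays. Its null minus het difference was -0.14 with an interval of -0.91 to 0.63 (exact permutation p = 0.743).

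The type II receptor gene put read 11.00, 10.61, 10.72 and 11.28 in null 1 to 4, against 11.01, 10.72, 11.05 and 10.94 in het 1 to 4. Both groups centred on nearly the same level, and null held the lowest and the highest array. The difference was -0.03 with an interval of -0.41 to 0.35, which reaches from 1.33-fold lower to 1.27-fold higher in null (exact permutation p = 0.829). The type I receptor gene sax, which acts with Gbb, read 9.95, 10.22, 9.97 and 9.81 in null 1 to 4, against 10.19, 9.22, 10.62 and 10.21 in het 1 to 4. Het 2 was the lowest and het 3 the highest array, enclosing all null arrays. The difference of -0.07 had an interval of -0.72 to 0.58 (exact permutation p = 0.829), and without het 2 it was -0.35 with an unadjusted limma p of 0.0545.

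Of the effectors, Mad, the Smad that the receptors phosphorylate, read 10.02, 10.00, 10.09 and 9.98 in null 1 to 4, against 10.22, 9.33, 10.31 and 10.24 in het 1 to 4. The null arrays lay within 0.11 of one another, below het 1, het 3 and het 4 and above het 2. Null averaged 10.02 ± 0.05 and het 10.02 ± 0.47 (SD, n = 4 each; exact permutation p = 1), with an interval of -0.50 to 0.50. Without het 2, the only het array below the null arrays, null minus het was -0.23 (SE 0.08). Its unadjusted limma p was 0.0274 (3.46% of all probe sets had one under 0.05), with an adjusted p of 0.969. The groups then did not overlap, but the share of all probe sets without overlap was not computed for this setting.

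Med, the common partner Smad, read 8.05, 8.17, 8.06 and 8.51 in null 1 to 4, against 7.99, 8.29, 8.16 and 7.73 in het 1 to 4. The groups interleaved apart from null 4 at the top and het 4 at the bottom. Null minus het was 0.16 with an interval of -0.21 to 0.53 (exact permutation p = 0.4).

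Dad, the inhibitory Smad that the pathway itself induces, read 9.11, 8.68, 8.46 and 7.99 in null 1 to 4, against 8.48, 8.29, 8.37 and 8.30 in het 1 to 4. Both null P30 arrays lay above all het arrays and null 4 below them, while the het arrays spanned only 0.20. Null averaged 8.56 ± 0.47 and het 8.36 ± 0.09 (SD, n = 4 each), with a difference of 0.20 and an interval of -0.31 to 0.71 (exact permutation p = 0.514). The difference rested on single null arrays, being 0.017 without null 1 and 0.39 without null 4. The larger value had an unadjusted limma p of 0.0489, where 3.65% of all probe sets had one under 0.05, and an adjusted p of 1.

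Smurf, the ubiquitin ligase, had the largest difference of the members. It read 9.76, 9.80, 9.85 and 9.50 in null 1 to 4, against 10.29, 9.46, 10.88 and 10.23 in het 1 to 4. Each null array lay below het 1, het 3 and het 4, and only het 2 lay below the null arrays. Null averaged 9.73 ± 0.16 and het 10.21 ± 0.58 (SD, n = 4 each), a difference of -0.49 with an interval of -1.12 to 0.14 (exact permutation p = 0.143). Without het 2 it was -0.74 (SE 0.18) with an unadjusted limma p of 0.00542 and an adjusted p of 0.969. Of all probe sets, 3.46% then had an unadjusted p under 0.05. Without both het 2 and null 4 it was -0.66 with an unadjusted limma p of 0.014 and an adjusted p of 0.935, where 5.07% of all had one under 0.05. With array weights, which kept all 8 arrays but were estimated from these same values, it was -0.57 with an unadjusted limma p of 0.0185. The lowest adjusted p of any member was then 0.796. Without het 3, the highest array, it was -0.26 with an unadjusted p of 0.275.

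**Figure D2:**
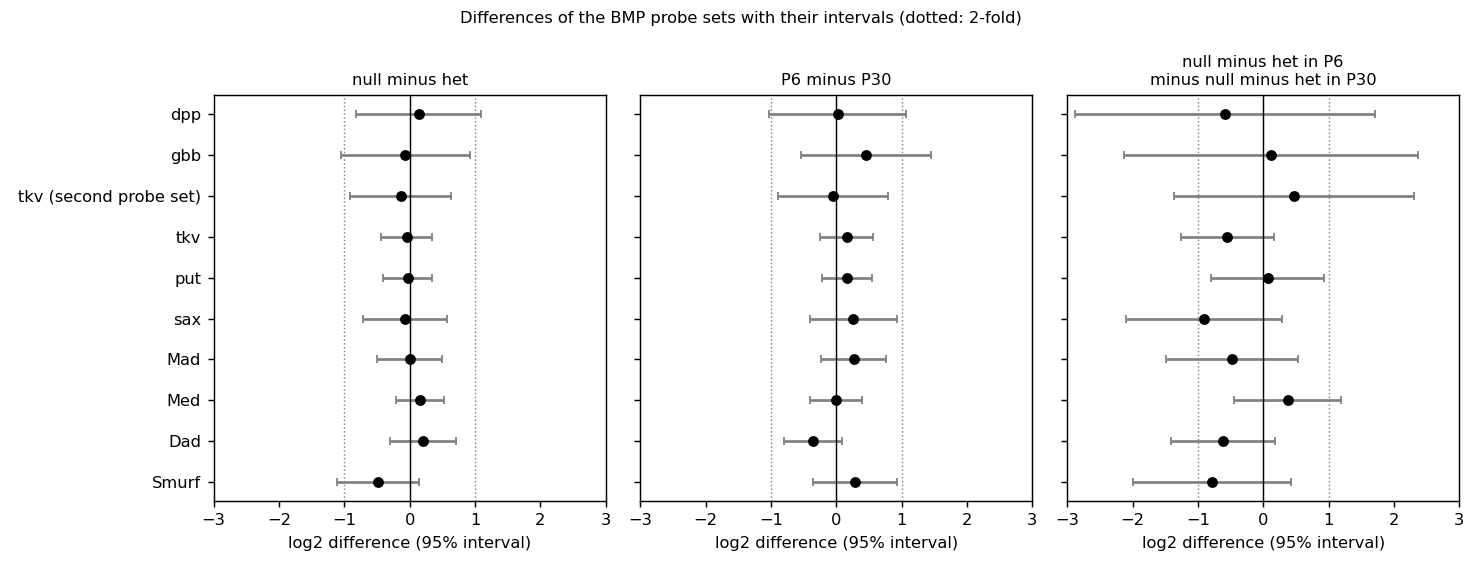
Log2 difference of each BMP probe set (points) with its 95% interval (bars) for null minus het, P6 minus P30, and null minus het in P6 less that in P30, on a shared horizontal axis with 2-fold dotted. All 30 intervals cover 0, and those of dpp and gbb are the widest.

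The spread of the members was uneven. Among probe sets within 0.5 of a member's mean level, the median SD within labels was 0.35 to 0.51, and 5 of 10 members lay above the median of their like and 5 below. The most variable were gbb, the tkv probe set of lower mean and dpp, at percentiles 82.4, 78.3 and 72.4, and the least variable was Med at percentile 3.6, followed by Dad at 17.1 and put at 18. Over all probe sets, most of them dimmer, the median SD was 0.25 and that of the members 0.38. In gbb, dpp and that tkv probe set the lowest and the highest array were null 3 and null 4, which share label and chk2 background. Null 3 exceeded null 4 by 2.14 log2 units in dpp, or 4.41-fold, and by 2.08 in gbb, or 4.24-fold, whereas the tkv probe set was 3.23-fold lower in null 3. In that pair 3 of 10 BMP probe sets differed by 2-fold or more, against 17.3% of all probe sets. In the null P30, het P6 and het P30 pairs 0 of 10 did, against 7.03%, 4.21% and 7.46% of all. These shares are over probe sets of every level, most of them dimmer than the members.

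Of the 50 genes on 4 lists of pathway and niche genes, 14 differed by 2-fold or more between null 3 and null 4, or 28% beside 17.3% of all probe sets, with 11 higher and 3 lower in null 3. In each list most genes lay above the median level over all probe sets. Probe sets of like level were not compared, so these shares do not show an excess. The collagen IV genes Col4a1 and vkg, whose products bind Dpp in the ovary, were higher in null 3 by 2.55 and 2.54 log2 units. The JAK/STAT ligand gene upd1 was higher in null 3 by 1.74, while bam, expressed in dividing cystoblasts, was lower in null 3 by 1.78 (7.53 in null 3 and 9.31 in null 4). The gene of its partner, bgcn, went the other way and was higher in null 3 by 1.32. The other genes lower in null 3 were mav, which encodes another ligand of the TGF-beta family, at -2.61 and ci, the Hedgehog effector gene, at -1.83. Follicle cell markers were higher in null 3 in 7 of 9 and germline markers lower in null 3 in 7 of 11, with medians of 0.71 and -0.11. Midgut genes were higher in null 3 in 15 of 18 with a median of 1.17, muscle genes in 6 of 7 with a median of 0.22, fat body genes in 3 of 4 with a median of 0.72 and salivary glue genes in 7 of 8 with a median of 0.29. Whether the makeup of the tissue had a part in the ligands' spread was not tested.

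**Figure D3:**
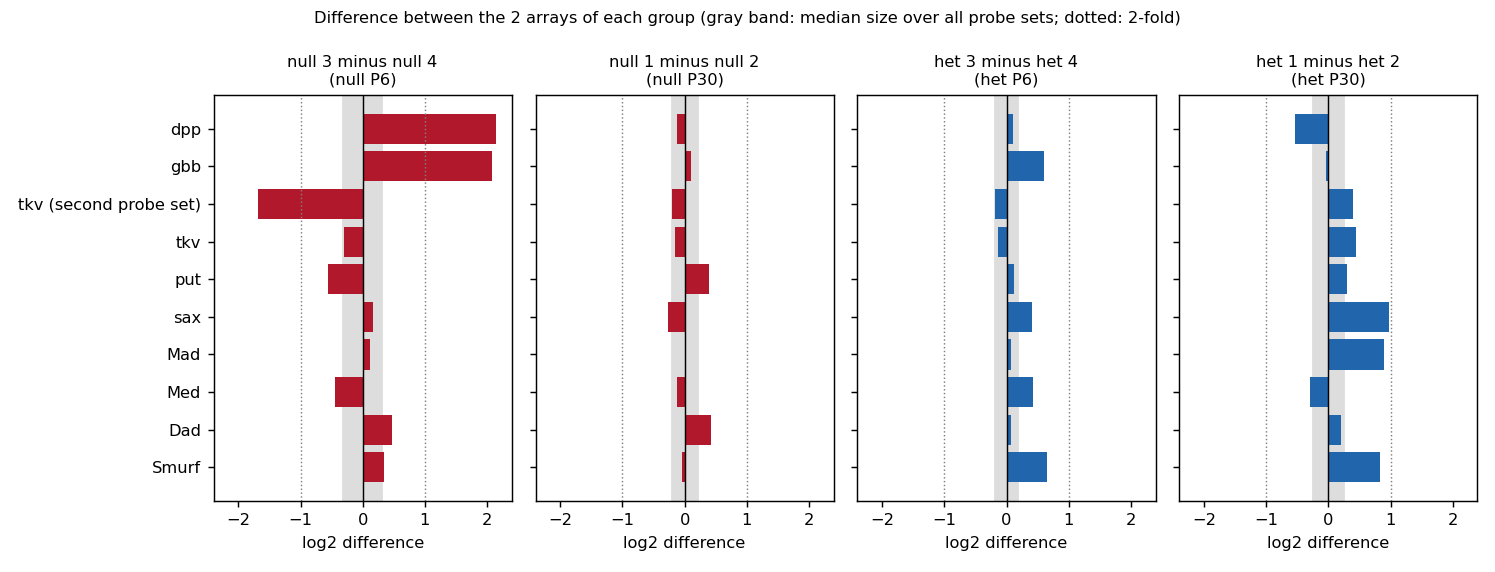
Difference in log2 signal between the 2 arrays of each label and background (horizontal axis) for each BMP probe set (rows), with a gray band for the median size over all probe sets and 2-fold dotted. Bars past 2-fold appear only between null 3 and null 4, for dpp, gbb and 1 of the tkv probe sets.

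Het 2 was the lowest of the 8 arrays in 4 of 10 BMP probe sets, where it was lowest in 14.3% of all. These were the higher tkv probe set, sax, Mad and Smurf, all on chromosome 2, where 7 of the 10 BMP probe sets lie. Of all named probe sets on chromosome 2, het 2 was lowest in 16.2%. Null 4 was the highest array in 3 and the lowest in 3 of the 10, and het 3 the highest in 3.

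The chk2 backgrounds were compared over both labels with genotype as a term. Again 0 of 10 BMP probe sets were called, against 1.64% of all, 0 of 10 had an unadjusted p under 0.05 against 9.74% of all, and P6 and P30 arrays overlapped in all 10, where 5.75% of all probe sets did not. Differences of P6 minus P30 lay between -0.36 and 0.45, with a median of 0.16 beside -0.02 over all probe sets, and 7 of 10 were positive beside 45.1% of all. For 8 of 10 the interval lay within 2-fold, dpp and gbb excepted. The highest was gbb, which averaged 9.27 ± 0.89 in P6 and 8.82 ± 0.08 in P30 (SD, n = 4 each), with an interval of -0.54 to 1.45 (exact permutation p = 0.314). Its difference of 0.45 was 0.026 without null 3 and 0.86 without null 4. The lowest was Dad, at 8.28 ± 0.21 in P6 and 8.64 ± 0.35 in P30, with an interval of -0.81 to 0.09 (n = 4 each, exact permutation p = 0.143). For dpp the means were 6.39 ± 0.88 in P6 and 6.37 ± 0.33 in P30 (n = 4 each, exact permutation p = 1).

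Null 3 and null 4 thus decided part of this comparison, and the sign of the dpp difference turned with which of these 2 arrays was left out. Without null 3 it was -0.35 (SE 0.36). Without null 4, 3 of 10 members, dpp, gbb and 1 tkv probe set, had an unadjusted limma p under 0.05. For dpp, the signal without null 4 was higher in P6 than in P30 by 0.51 (SE 0.18), at an unadjusted limma p of 0.0297 and an adjusted p of 0.19, and 21.9% of all probe sets then had such a p under 0.05. Without both null 4 and het 2 the dpp difference was 0.69, at an unadjusted limma p of 0.00178 and an adjusted p of 0.345, and 13.9% of all probe sets then had one under 0.05. Follicle cell markers were higher in P6 in 9 of 9, with a median of 0.65, and 2 of the 9 were called, against 1.64% of all probe sets. Their mean signal ran from 10.2 to 10.9 in P6 and from 9.02 to 10.2 in P30. Salivary glue genes were lower in P6 in 8 of 8, with array means of 4.19 to 5.18 in P6 and 4.32 to 8.49 in P30, highest in null 1 and het 1. Fat body markers were lower in P6 in 4 of 4. The part of these in the members' values was not tested.

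Within each background the null and het groups held 2 arrays each. In P6, Smurf was the only member with an unadjusted limma p under 0.05 (0.0456, adjusted p = 1), where 1.66% of all probe sets had one. It averaged 9.67 in null P6 and 10.55 in het P6, a difference of -0.88 (SE 0.35), and in P30 it averaged 9.78 in null and 9.87 in het, a difference of -0.09 (SE 0.35). Het 2 is among the P30 arrays. The null minus het difference in P6 less that in P30 was -0.78 for Smurf (SE 0.49, adjusted p = 1 by limma), so the effect was not shown to differ between backgrounds. It was -0.37 without het 2 and -0.19 without both het 2 and null 4. Dad averaged 8.23 in null P6 and 8.34 in het P6, and 8.89 in null P30 and 8.38 in het P30, with a difference of -0.62 between the backgrounds (SE 0.32, adjusted p = 1 by limma). For sax that difference was -0.91 (SE 0.48) and for the higher tkv probe set -0.55 (SE 0.29), each with an adjusted limma p of 1. The tkv probe set of lower mean went the other way, at 0.47 (SE 0.75). Without het 2 the differences were -0.42 for sax, -0.33 for the higher tkv probe set and 0.67 for the lower. Without both het 2 and null 4 they were -0.34, -0.48 and -0.18 in the same order.

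By this test of the difference between backgrounds 0 of 10 were called, against 0.277% of all probe sets, and 0 of 10 had an unadjusted p under 0.05, against 1.13% of all. With 2 arrays in each group, only put had an interval within 2-fold, and that of dpp ran from -2.87 to 1.71. Leaving out 1 array produced calls, of dpp (-1.65) and the tkv probe set of lower mean (1.31) without null 3, of gbb (1.16) without null 4, and of sax and Smurf without het 1. The same rule then called 6.06% of all probe sets without null 3, 0.879% without null 4 and 1.35% without het 1. No member had an adjusted p under 0.05, the lowest of any member under any setting being 0.177.

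The order of the 4 groups differed from member to member. Dad and dpp were highest in null P30, both tkv probe sets and gbb, sax, Mad and Smurf in a het group, and put and Med in null P6. Of the 3 pairs of neighbours in each order, at most 1 pair did not overlap. For Dad that was null P30 above het P30, for dpp null P30 above het P6, for gbb het P30 above null P30, and for Mad and the higher tkv probe set it was het P6 above the next group. For put, sax, Med, Smurf and the tkv probe set of lower mean all neighbours overlapped. The share of all probe sets with neighbours that did not overlap was not computed, so these separations have no baseline. Groups were also sorted by mean before neighbours were compared, and the order was not tested.

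Genes that act with the members were taken from 4 lists, and none was called between null and het or between P6 and P30. Among other ligands, receptors and Smads of the BMP and Activin branches, 3 of 8 were higher and 5 lower in null, with a median of -0.05. They ran from daw, an Activin-branch ligand gene, at 0.37 to Smox, the Activin-branch Smad gene, at -0.40. Without het 2 these were 0.16 for daw and -0.63 for Smox. Of the extracellular modulators, 5 of 14 were higher and 9 lower in null, with a median of -0.06, from tok, a BMP-1 family protease gene, at 0.48 to trol, the perlecan gene, at -0.44.

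Of the intracellular modulators and nuclear partners, 3 of 13 were higher and 10 lower in null, with a median of -0.15. The lowest was shn, whose product joins Mad and Medea in repression, at 8.49, 7.67, 8.45 and 8.20 in null 1 to 4, against 8.41, 8.58, 9.16 and 9.25 in het 1 to 4. Its groups overlapped only through het 1, for which no share of all probe sets was computed. The difference was -0.65 (SE 0.25) at an unadjusted limma p of 0.0351 and an adjusted p of 1. Of this list 1 of 13 had an unadjusted p under 0.05, beside 2.25% of all probe sets. The target gene bam averaged 8.40 ± 0.74 in null and 8.54 ± 0.14 in het (SD, n = 4 each), a difference of -0.14 (SE 0.34). Its partner bgcn had the highest difference of this list, 0.16, and MAN1, a LEM domain gene whose product opposes BMP signalling, had 0.05 (SE 0.24). The target brk was not analysed here, as no probe set was assigned to it alone.

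**Figure D4:**
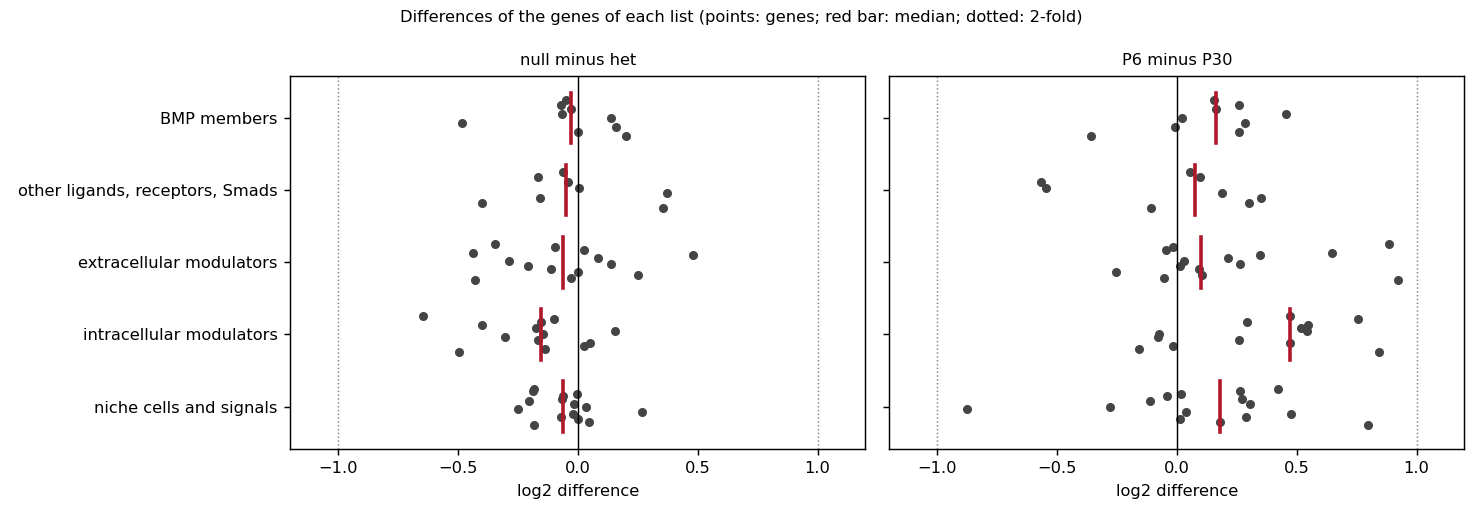
Log2 difference (horizontal axis) of each gene (points) of the BMP members and of 4 lists of pathway and niche genes, for null minus het and P6 minus P30, with the list median in red and 2-fold dotted. No point lies past 2-fold, and all 5 medians of P6 minus P30 lie above 0.

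Of the niche cell and signal genes, 4 of 15 were higher and 11 lower in null, with a median of -0.06, from bab2, a terminal filament and cap cell factor, at 0.27 to ci at -0.25. Of these, 5 lay below the median level of the array, en, hh, kek1, Lmx1a and tj, so their probe sets gave a low signal in whole ovaries. A low signal does not by itself show little RNA. Between backgrounds the list medians of P6 minus P30 were 0.08, 0.10, 0.47 and 0.18 in the order above, beside -0.02 over all probe sets. The test of null minus het between backgrounds called 1 gene of the 4 lists, ttv, a heparan sulfate synthesis gene, at -1.17 (adjusted p = 1 by limma).

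Marker lists of other cells were uneven between the labels. Midgut genes were higher in null in 18 of 18, with a median of 1.05, and 4 of the 18 were called, against 0.149% of all probe sets. Their mean signal ran from 6.60 to 9.22 in null and from 5.75 to 7.65 in het, where het 1 lay above null 1 and null 4. Germline markers were higher in null in 0 of 11, with a median of -0.19 and array means of 10.4 to 10.7 in null and 10.6 to 10.9 in het. Male germline and accessory gland genes were lower in null in 8 of 8, of which 7 lay below the array median level. No germline or male gene was called or had an unadjusted p under 0.05. Their part in the members' differences was not tested.

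Over the 8 arrays, the genes whose profile lay closest to that of dpp were NimB2, a Nimrod family gene, SPARC, which encodes a collagen-binding matrix protein, and Mlp84B, which encodes a muscle LIM protein. The root mean square difference between profiles centred on their mean was 0.13, 0.16 and 0.16, where the median over 11952 genes was 0.64. All 3 were, like dpp, highest in null 3 and lowest in null 4, which follows from how they were picked. For Dad they were yip3, Erasp and CG7509, at 0.11, 0.11 and 0.15, where the median was 0.42. All 3 were, like Dad, highest in null 1 and low in null 4, which again follows from how they were picked.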

How the data were processed

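The authors deposited log2 signals of 18952 probe sets, which RMA had corrected for background, quantile-normalized and summarized. The submitters' notes name Affymetrix Expression Console 1.4.1. The study describes log2 signal intensities from these arrays, and the values range from 2.37 to 14.45. RMA equalizes the arrays and flattens low signals. Tests ran on 18769 probe sets, without 183 controls, and 13647 of them named 1 gene. Every column of values (0 exceptions) belonged to a sample, and the number of arrays limits the precision.

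Null was set against het with limma 3.58.1 under R 4.3.3 without covariates, P6 against P30 with genotype as a term, and the interaction in a fit of the 4 groups. Benjamini-Hochberg adjustment ran over all probe sets. The members, gene lists, tests and alternatives were chosen with earlier results of these data known, including the doubts about het 2 and null 4. Named genes were all member probe sets, bam, shn, MAN1 and Ote, the genes with the highest and lowest null minus het difference in each list, any gene called in a list, and the 3 nearest to dpp and to Dad. A gene of several probe sets was represented by that of highest mean. Col4a1, vkg, upd1, mav, ttv, Acp26Aa, Acp36DE and SP, and the dim genes of the niche list, were named after their values were seen. Probe sets of dpp and Dad carry the suffix s, which marks probes that can match transcripts of several genes. Alternatives were an unmoderated test (the one-way analysis of variance named in the methods), blocks of background or replicate number, no genotype term, cyclic loess, median centring, array weights, trended and robust variances, leaving out dim probe sets, the mean of a gene's probe sets, and arrays left out. The scripts were tested on simulated data.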

Additional observations from a re-analysis of the deposited data

Results flagged for a closer look

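Among the 20 sets of 4 arrays that share a label, 2 held an array far from the others. For gbb, het 3 stood at 9.577 above the other het arrays, with a gap of 0.841 of the range. For Mad, het 2 stood at 9.329 below the other het arrays, with a gap of 0.914 of the range. The criterion was 0.829, which chance passes in about 1 of 20 groups and which 6.31% of all probe sets and labels passed.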

How the results depend on the processing

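No setting gave a BMP probe set an adjusted p under 0.05 or called one between null and het or between P6 and P30. All probe sets called between null and het numbered 28 (15 by the unmoderated test, 63 with array weights, 132 without both het 2 and null 4, 13 to 98 with 1 array left out). Between P6 and P30 they numbered 307 (191 by the unmoderated test, 558 without both, 148 to 672), and for the interaction 52 (25, 280 and 75 to 1137). The members' median without both was -0.22 for null minus het, 0.013 for P6 minus P30 and -0.12 for the interaction. With 1 array left out these medians were -0.14 to 0.10, 0.036 to 0.25 and -0.69 to -0.18, the interaction called 0 to 2 members, and 0 to 1 gene of the 4 lists was called (Col4a1, at -1.03 without null 3). Where a group was left with 1 array, that array was assumed to vary like the others.

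Differences near 0 turned in sign. For null minus het these were Mad (0.0197 with median centring, 0.0028 with cyclic loess), gbb (0.14 without both) and MAN1 (-0.045 with array weights, -0.27 without both). For P6 minus P30 these were dpp (-0.035 with cyclic loess), Med (0.052 with median centring, 0.024 with array weights), put (-0.051 without both), tkv (-0.031 without both) and its probe set of lower mean (0.0052 with median centring). With 1 array left out, null minus het ran from -0.17 to 0.54 for dpp, -0.50 to 0.20 for gbb, -0.19 to 0.047 for tkv, -0.45 to 0.11 for its probe set of lower mean, -0.16 to 0.068 for put, -0.35 to 0.11 for sax, -0.23 to 0.094 for Mad, -0.45 to 0.15 for bam, -0.12 to 0.32 for bgcn, -0.61 to 0.20 for ci, 0.017 to 0.39 for Dad and -0.13 to 0.19 for MAN1. P6 minus P30 ran from -0.35 to 0.51 for dpp, -0.44 to 0.24 for the tkv probe set of lower mean, -0.026 to 0.40 for sax, 0.026 to 0.86 for gbb and -0.14 to 0.11 for Med. The cause was not tested.

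Same-numbered null and het arrays deviated together at r of -0.0018, 0.38, 0.54 and -0.10, and differently numbered ones at -0.46 to 0.18. Replicates 2 and 3 thus lay above every differently numbered pair, and replicates 1 and 4 did not. Same-numbered arrays also share the chk2 background, which most differently numbered pairs do not. Deviations were taken from the label means alone, and the part of background in these r values was not tested. The labels do not say whether same-numbered arrays were collected together, and the main tests left them unpaired. With the replicate number as a block, 39 probe sets and 0 of 10 members were called between null and het.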
